A study of Mus musculus with 58 samples.

Results

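Ribosome footprints from the striatum of 16p11.2 del/+ male mice were compared with those of wild-type (wt) males. The comparison takes 3 del/+ libraries, named RIBO-504, RIBO-506 and RIBO-516, and 4 wt libraries, named RIBO-498, RIBO-499, RIBO-505 and RIBO-517. These are 7 of the 58 libraries in the series. All 7 are labelled as male, strain B6129S and striatum. The del/+ animals carry 1 copy of the mouse segment that corresponds to human 16p11.2 in every cell of the body. By the methods of the paper the line was bought as an established strain and compared with adult littermates, but the footprint libraries are not described there and no age is given in the labels. The same labels give polyA RNA as the molecule and human brain as the extracted tissue. The series also holds RNA of the same 7 lysates (lysate RNA), RNA-seq of other 16p11.2 mice (bulk RNA, here the 4 del/+ and 4 wt males), and 6 footprint libraries of the 3g line, which carries null mutations of Taok2, Sez6l2 and Mvp on 1 copy (3 del/+ and 3 wt males).

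In ribosome profiling, lysate is digested with nuclease and the short RNA pieces protected inside ribosomes are sequenced. The number of footprints on a gene depends on how much mRNA there is and on how many ribosomes each mRNA carries, so footprints are read beside RNA of the same lysate. The 16p11.2 segment is recurrently lost or gained in people with autism, intellectual disability and altered body weight. It holds genes for kinases, synaptic membrane proteins, metabolic enzymes and nuclear factors. In the striatum, spiny projection neurons receive dopamine and glutamate input and govern movement and reward seeking.

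The 7 libraries held between 357221 and 611890 footprint counts, a small number beside the sequencing depth the labels state, of which at most 0.471% was counted. The lysate RNA libraries held between 15102576 and 17995977 counts. Mean totals were 497592 ± 112173 (SD, n = 4) in wt and 383559 ± 23439 (SD, n = 3) in del/+, with overlapping groups. The median count of a tested gene in a library was 20, so a single gene rests on few footprints. Between 29.7% and 41.3% of counts were on the 13 mitochondrially encoded genes. Genes of spiny neurons were present in every library, with summed levels of 2663 to 3833 CPM in wt and 2531 to 3376 CPM in del/+ for 8 pan-spiny markers. CPM is counts scaled to 1e6 counts of tested genes after TMM scaling, a scaling that compares libraries through their typical gene. None of the choroid plexus, endothelial, ependymal and cholinergic markers had enough counts to be tested. In whole tissue, fewer cells of a type and less RNA per cell cannot be told apart.

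Footprints on the deleted segment in del/+ were close to those of 1 gene copy. Summed over the 32 genes of the segment with a row in the table, footprints were at 1640, 1413, 1607 and 1675 CPM in the wt libraries RIBO-498, RIBO-499, RIBO-505 and RIBO-517. They were at 782, 812 and 802 CPM in the del/+ libraries RIBO-504, RIBO-506 and RIBO-516, and values below keep this order. The del/+ libraries lay within a narrow range and all were below all wt libraries. The del/+ mean, 799 ± 15.1 CPM (SD, n = 3), was 50.4% of the wt mean, 1584 ± 117 CPM (SD, n = 4), with p = 0.0571 in a two-sided exact permutation test, the smallest p that 3 against 4 libraries allow. The segment was taken as the RefSeq genes from Slx1b to Septin1 on chromosome 7, among which 34 code for protein.

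Of the 32 genes, 13 had enough counts for the test across 5964 genes (edgeR's quasi-likelihood test, Benjamini-Hochberg adjusted p below 0.05), and all 13 had lower footprints in del/+ than in wt. Over all tested genes 50.9% were lower. The median log2 fold change of the 13 was −1.09, between −1.36 for Kctd13 and −0.63 for Cd2bp2, against −0.01 over all tested genes. In 11 of the 13 all del/+ libraries were below all wt libraries, which held for 3.22% of all tested genes. Unadjusted p was below 0.05 in 12 of the 13, against 2.62% of all tested genes in that direction. Aldoa and Maz passed the adjusted threshold, which 0.0503% of tested genes passed downwards. Another 4 (Sez6l2, Kctd13, Taok2 and Prrt2) had adjusted p between 0.05 and 0.10. The 95% interval of each of the 13 fold changes included −1, the value for 1 copy in place of 2.

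**Figure D1:**
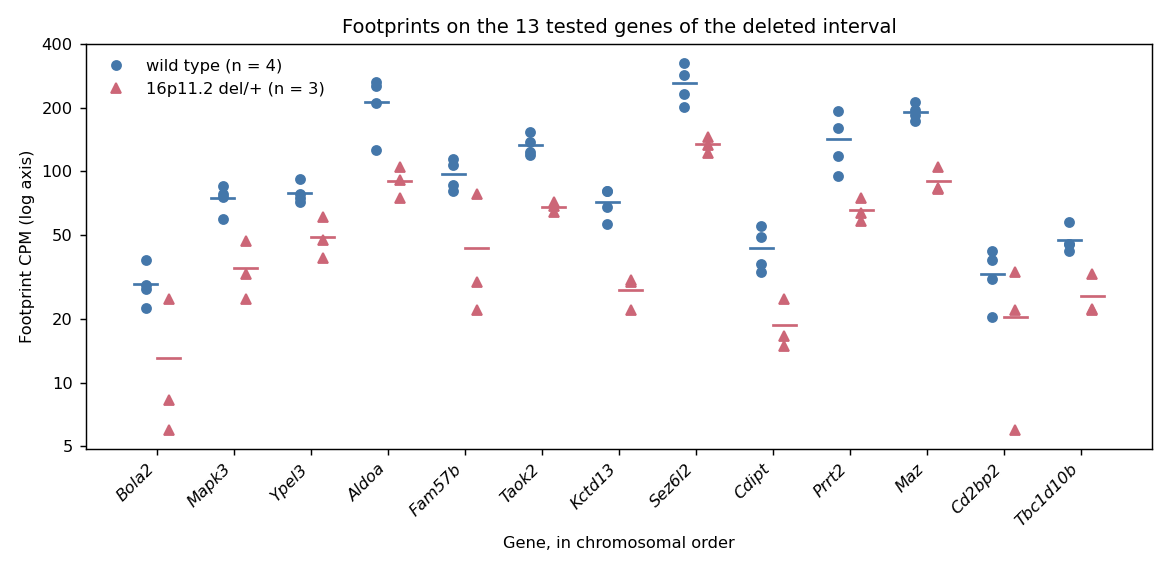
Footprint level (CPM, log axis) of each of the 13 tested genes of the deleted segment in 4 wt libraries (circles) and 3 del/+ libraries (triangles), with group means as lines. The groups overlap only for Bola2 and Cd2bp2.

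Both tested kinases of the segment had fewer footprints in every del/+ library than in any wt library. Mapk3 encodes ERK1, the kinase at the end of the RAS to ERK cascade, and was at 75.3, 78.4, 59.5 and 85.4 CPM in wt and at 46.8, 25.02 and 32.8 CPM in del/+. Among the del/+ libraries RIBO-504 was the highest. The Mapk3 log2 fold change was −1.09 ± 0.31 (SE), with adjusted p = 0.230. Taok2, a kinase of the Ste20 family that acts in dendrite and spine formation, was at 120, 138, 123 and 153 CPM in wt. Its del/+ values, 68.8, 63.9 and 71.6 CPM, were nearly equal to each other and well below every wt value. The log2 fold change of Taok2 was −0.97 ± 0.24 (SE), with adjusted p = 0.0921.

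The neuronal membrane proteins showed the same pattern. Sez6l2, a neuronal surface protein with CUB and sushi domains, had 231, 202, 285 and 327 CPM in wt and 146, 133 and 122 CPM in del/+. The groups did not overlap, and the log2 fold change was −0.97 ± 0.22 (SE), with adjusted p = 0.0671. Without wt library RIBO-499 both Sez6l2 and Prrt2 were called, with adjusted p = 0.0214. Prrt2, a presynaptic protein whose loss in people causes paroxysmal movement disorder and infantile seizures, had 192, 94.98, 160 and 118 CPM in wt. Its del/+ values were 63.3, 58.4 and 74.6 CPM, below the wide wt range. The log2 fold change of Prrt2 was −1.10 ± 0.27 (SE), with adjusted p = 0.0921.

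Among the enzymes, Aldoa passed the threshold. Aldoa encodes the aldolase of glycolysis and was at 254, 126, 211 and 263 CPM in wt and at 90.9, 75.1 and 104 CPM in del/+. Wt library RIBO-499 lay apart from the other wt libraries, yet above every del/+ library. The log2 fold change of Aldoa was −1.25 ± 0.25 (SE), with adjusted p = 0.0228. That call held without wt library RIBO-499 and was lost without any other single library, with adjusted p between 0.0667 and 0.322. Near-identical processed copies of Aldoa exist in the mouse genome, and how reads shared with them were counted is not given in the sources used here. Fam57b (Tlcd3b in RefSeq), a TLC-domain protein of ceramide metabolism, was at 86.4, 80.7, 115 and 107 CPM in wt and at 22.03, 77.8 and 29.8 CPM in del/+. Del/+ library RIBO-506 lay just below the lowest wt library and the other del/+ libraries far below. Fam57b had a log2 fold change of −1.17 ± 0.32 (SE), with adjusted p = 0.171. Without RIBO-506 Fam57b was called, at −1.91 with adjusted p = 0.0222. Cdipt, which makes phosphatidylinositol, was at 43.5 ± 10.5 CPM in wt (SD, n = 4) and 18.8 ± 5.27 CPM in del/+ (SD, n = 3), without overlap.

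Of the nuclear and regulatory proteins, Maz passed the threshold. Maz is a zinc finger factor that binds GC-rich promoters. Its footprints were at 173, 214, 195 and 185 CPM in wt and at 82.6, 83.4 and 104 CPM in del/+. The wt values were close to each other and all far above the highest del/+ value. The log2 fold change of Maz was −1.09 ± 0.22 (SE), with adjusted p = 0.0251. Without RIBO-505, RIBO-517, RIBO-504, RIBO-506 or RIBO-516 the call for Maz was lost, with adjusted p up to 0.308. Kctd13, the adaptor that brings RhoA to a Cul3 ubiquitin ligase, had 80.9, 80.7, 67.7 and 56.3 CPM in wt and 22.03, 30.6 and 29.8 CPM in del/+. It had the lowest log2 fold change of the 13, −1.36 ± 0.33 (SE), with adjusted p = 0.0921. Kctd13 overlaps Asphd1, and reads within the stretch they share cannot be told apart without strand.

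Of the other members of the 13, Ypel3 and Tbc1d10b separated the groups, and Bola2 and Cd2bp2 did not. Ypel3, of the yippee-like family, was at 92.0, 78.4, 71.8 and 74.5 CPM in wt and at 60.6, 47.3 and 38.8 CPM in del/+. Tbc1d10b, which switches off Rab GTPases, was at 47.5 ± 6.87 CPM in wt (SD, n = 4) and 25.7 ± 6.16 CPM in del/+ (SD, n = 3). Bola2, which works with glutaredoxin in iron and sulfur cluster supply, had between 2 and 9 counts in del/+ and between 10 and 16 in wt, and its CPM ranges overlapped. Cd2bp2, a component of the U5 particle of the spliceosome, had a log2 fold change of −0.63 ± 0.46 (SE), and it alone of the 13 had an interval that included 0 (−1.57 to 0.30).

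The 19 other genes of the segment had at most 61 counts over all 7 libraries and were not tested. The 13 passed the filter on counts that the wt libraries helped to supply, so they are not a neutral sample of the 32. Summed footprints of the 19 untested genes were at 187, 166, 162 and 151 CPM in wt and at 102, 120 and 134 CPM in del/+, again without overlap. The del/+ mean was 71.2% of the wt mean in this group and 48.0% in the 13 tested genes. Mean footprints were lower in del/+ for 10 of the 19 genes and higher for 9. Asphd1 and Kif22 had all del/+ libraries below all wt libraries. Kif22, a chromosome-bound kinesin, had 2 to 4 counts in each wt library and none in any del/+ library. In the other direction stood Cdiptos, named as the opposite strand of Cdipt, with 1 count in each del/+ library and 1 in all wt libraries together.

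Among these genes Hirip3 and Doc2a had the smallest p for a difference between the footprint and the RNA effect. Hirip3, a partner of the histone chaperone HIRA, had 10, 6, 5 and 10 footprint counts in wt and 6, 12 and 8 in del/+. Its levels were 17.6 ± 7.55 CPM in wt (SD, n = 4) and 24.6 ± 8.44 CPM in del/+ (SD, n = 3), and the groups overlapped. In lysate RNA of the same animals Hirip3 fell by 0.92 on the log2 scale (adjusted p = 0.00504). Its difference between the footprint and RNA effects was 1.36 ± 0.42 (SE, log2), with unadjusted p = 0.00318 and adjusted p = 0.724. Doc2a, a calcium sensor of transmitter release, had 0, 0, 1 and 6 counts in wt and 3, 3 and 6 in del/+, and the difference of its effects was 2.92 ± 0.95 (SE, log2), with adjusted p = 0.735. Doc2a overlaps Ino80e, and neither Hirip3 nor Doc2a passed the adjusted threshold.

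RNA of the same lysates was lower to a like degree. Segment RNA was at 970 ± 33.1 CPM in wt (SD, n = 4) and 463 ± 38.7 CPM in del/+ (SD, n = 3), or 47.7% of wt. Of 27 segment genes tested in lysate RNA, all 27 were lower in del/+, against 49.6% of all 14330 tested genes, and 16 were called, against 0.126% downwards. Septin1 (Sept1 in the file), the gene at the end of the segment, was at −0.19 ± 0.30 (SE) in lysate RNA and −0.01 ± 0.36 (SE) in bulk RNA, and had 8 footprints in all, so none of the assays showed it lower by more than the error. In lysate RNA 0.00698% of all tested genes were called upwards, the single gene Tyr. The 16 included all 13 genes tested in footprints, with a median log2 fold change of −1.04 in those 13. Their standard errors were 0.10 to 0.16 in lysate RNA and 0.22 to 0.52 in footprints. In bulk RNA of other males 17 of 29 tested segment genes were called, against 0.0947% of all 17957 tested genes downwards and 0.0111% upwards. Of the 13 footprint genes, 11 were among the 17. Prrt2 was not, with a bulk log2 fold change of 0.02 ± 0.57 (SE) against −1.21 ± 0.12 (SE) in lysate RNA, and Bola2 missed the threshold at −1.15 (adjusted p = 0.0937).

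The difference between the footprint effect and the RNA effect was tested directly over the 14 libraries, as the interaction of genotype and assay. None of the segment genes was called by edgeR, where 0.00664% of 15071 tested genes were, nor with the animal as a block, where 0.0664% were. Unadjusted p was below 0.05 in 4 segment genes (Hirip3, Doc2a, Kif22 and Ppp4c). All 4 were among the 19 with too few counts for the footprint test, and none among the 13. Over all tested genes 6.24% had such a p, and 5.59% with the block. In the 13 footprint genes the differences ran from −0.55 for Kctd13 to 0.38 for Cd2bp2, with a median of 0.01 and standard errors between 0.23 and 0.50. Sez6l2, with the lowest RNA fold change of those called (−1.38), had a difference of 0.32 ± 0.25 (SE). A departure of footprints from RNA within these errors was not detectable at this depth.

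**Figure D2:**
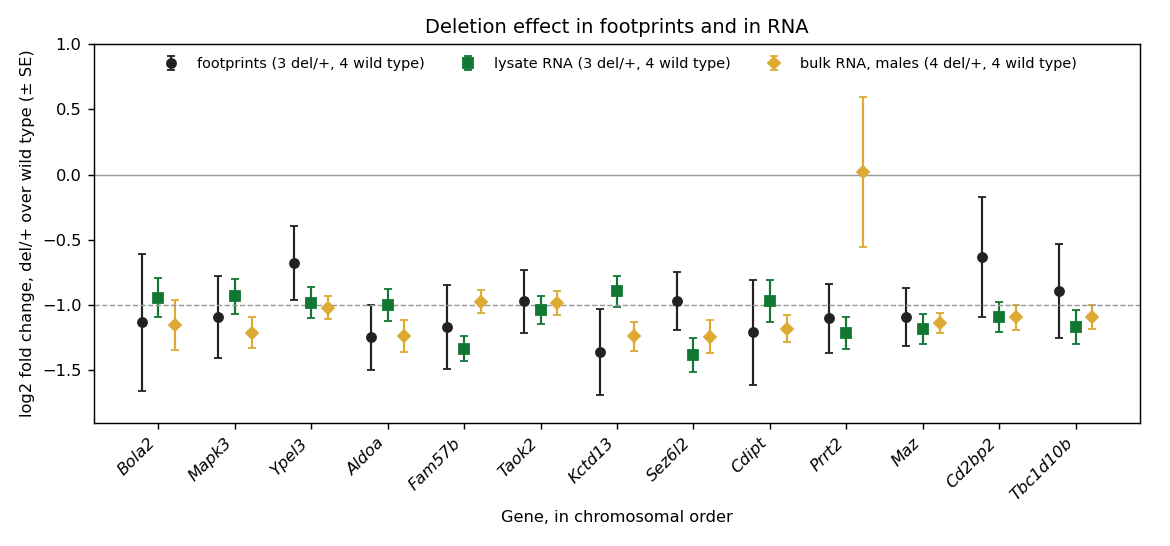
Log2 fold change of del/+ over wt (points, bars are ± SE) for the 13 tested genes of the segment in footprints, lysate RNA and bulk RNA of males. The dashed line marks −1. Footprint values run from −1.36 to −0.63 and lysate RNA values from −1.38 to −0.89, while bulk Prrt2 lies at 0.02.

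The window before the start of Maz is shown because Maz was 1 of the 2 segment genes past the threshold and encodes a promoter-binding factor. It is the 250 bases before a RefSeq start, on the minus strand of GRCm38.p6 (chr7:127027006-127027255), a build other than that of the footprint files. Capitals mark CCCTCCC, the reverse complement of the G-rich motif GGGAGGG that Maz is known to bind.
Maz: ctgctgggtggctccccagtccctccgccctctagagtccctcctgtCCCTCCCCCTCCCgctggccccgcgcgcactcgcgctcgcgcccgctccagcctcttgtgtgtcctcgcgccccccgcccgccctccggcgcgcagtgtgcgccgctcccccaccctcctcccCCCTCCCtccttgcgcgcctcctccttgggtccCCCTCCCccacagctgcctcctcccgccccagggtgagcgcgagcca
The window holds 4 matches. The window of another RefSeq start of Maz holds 2, and each window of Aldoa holds 0. Of 8 tested segment genes with a window, 3 hold the motif. In windows of this length, 19.7% of 32851 RefSeq starts hold the motif on either strand, overlaps counted. The 1619 tested genes outside the segment with the motif before any start had a median footprint log2 fold change of −0.02, and the 3034 without it had 0.01. None of the 5 genes called outside the segment was in the first group and 3 were in the second, and the others had no window.

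Outside the deleted segment, 5 genes were called, 4 with more and 1 with fewer footprints in del/+. Over all tested genes 0.0671% were called upwards. None of the 5 was called in lysate RNA.

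Lama1, the alpha chain of a basement membrane laminin, was at 134, 94.98, 220 and 174 CPM in wt and at 430, 431 and 555 CPM in del/+. Every del/+ library was far above every wt library. The log2 fold change of Lama1 was 1.58 ± 0.22 (SE), with adjusted p = 0.000227. Kcng1, a modifier subunit of voltage-gated potassium channels that forms no channel alone, was at 103, 87.9, 86.2 and 94.5 CPM in wt and at 245, 192 and 256 CPM in del/+. Its wt values were nearly equal and the groups lay far apart, with a log2 fold change of 1.31 ± 0.21 (SE) and adjusted p = 0.00145.

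Zfpm1 (FOG1), a partner of GATA factors, was at 282, 375, 501 and 309 CPM in wt and at 967, 706 and 817 CPM in del/+. Its groups did not overlap, and the log2 fold change was 1.18 ± 0.21 (SE), with adjusted p = 0.00739. Dcp1b, a subunit of the mRNA decapping complex, was at 181, 185, 265 and 145 CPM in wt and at 361, 431 and 349 CPM in del/+. Its log2 fold change was 0.97 ± 0.21 (SE), with adjusted p = 0.0439. Ski, which represses transcription by SMAD proteins, was at 223, 185, 166 and 187 CPM in wt and at 102, 83.4 and 68.6 CPM in del/+. Ski was the gene with fewer footprints, without overlap, at a log2 fold change of −1.16 ± 0.23 (SE) and adjusted p = 0.0228. With single libraries left out, the call was lost for Zfpm1 without RIBO-517 or RIBO-504, for Ski without RIBO-498, RIBO-517, RIBO-506 or RIBO-516, and for Dcp1b without any library but RIBO-505, with adjusted p of up to 0.0722, 0.308 and 0.393. For Lama1 and Kcng1 no such call was lost.

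**Figure D3:**
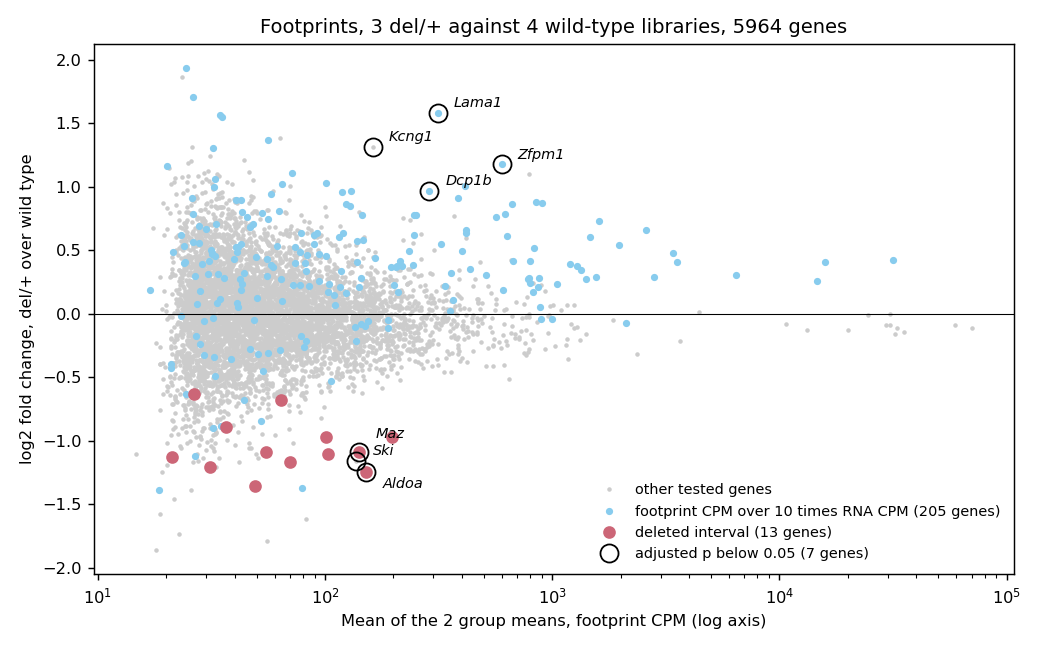
Log2 fold change in footprints against mean level (CPM, log axis) for the 5964 tested genes. Segment genes (red) all lie below 0, genes with far more footprints than RNA (light blue) lie mostly above 0, and circles mark the 7 called genes.

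In lysate RNA the 5 genes had log2 fold changes of −0.32 for Lama1, −0.29 for Kcng1, −0.35 for Zfpm1, 0.00 for Dcp1b and −0.05 for Ski, with adjusted p of 0.990 to 0.999. Lama1 RNA was at 0.875 to 2.01 CPM over the 7 lysates. Kcng1 RNA was at 15.4 to 17.7 CPM in wt and 12.3 to 13.8 CPM in del/+, without overlap and opposite to its footprints, with unadjusted p = 0.0252 in edgeR. Kcng1 was the gene called in the interaction of genotype and assay, with a difference of 1.53 ± 0.22 (SE, log2) and adjusted p = 0.00180. With the animal as a block 10 genes were called, and all 5 were among them. In the blocked fit the differences were 1.82 ± 0.31 for Lama1, 1.49 ± 0.19 for Zfpm1, 0.91 ± 0.22 for Dcp1b and −1.17 ± 0.23 for Ski (SE, log2). The other genes called in that fit were Zbtb4, Hook3, Cdc14b, Trip4 and Kcns2, all with a higher effect in footprints than in RNA. In bulk RNA of other males none of the 5 was called, with log2 fold changes between −0.14 for Ski and 0.32 for Dcp1b.

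**Figure D4:**
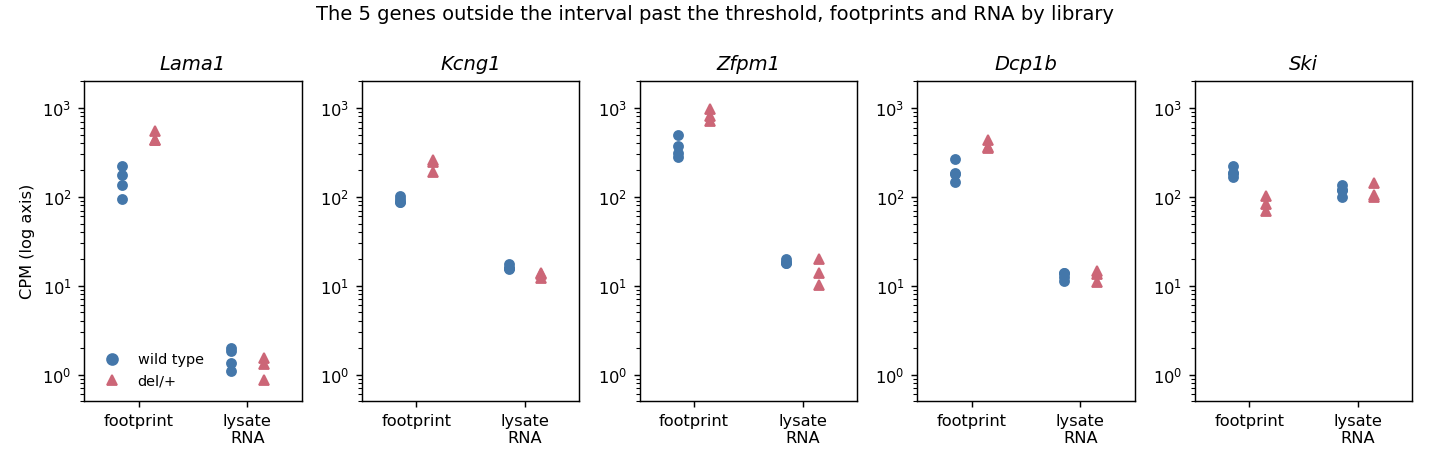
Level (CPM, log axis) of the 5 genes called outside the segment in footprints and in lysate RNA, in 4 wt libraries (circles) and 3 del/+ libraries (triangles). Footprints separate by genotype in each gene, and RNA does not for Lama1, Zfpm1, Dcp1b and Ski.

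Next came the 10 genes of lowest p outside the segment among those whose groups did not overlap, all of which missed the threshold. All 10 had more footprints in del/+, and they were Cdc14b, Olfr1029, Psg29, Zfp648, Trip4, Cd40, Znfx1, Gm20458, Evx2 and Brms1l, with log2 fold changes from 0.77 (Brms1l) to 1.57 (Gm20458) and adjusted p from 0.0644 (Cdc14b) to 0.132 (Brms1l). Over all tested genes 3.47% had all del/+ libraries above all wt libraries. Olfr1029, an olfactory receptor, had 471 ± 81.0 CPM in wt (SD, n = 4) and 857 ± 69.0 CPM in del/+ (SD, n = 3), while its lysate RNA was at 0.121 to 0.652 CPM. Psg29, a pregnancy-specific glycoprotein, and Evx2, a homeobox factor of the embryo, likewise had footprints beside lysate RNA of 0.0652 to 0.243 CPM and 0.0652 to 0.351 CPM.

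A class of genes with far more footprints than RNA was set after these values were seen. In 205 of the 5964 tested genes mean footprint CPM was over 10 times mean lysate RNA CPM, each scaled by all counts of its library, where the median ratio over all tested genes was 1.19. Lama1 (184), Zfpm1 (30.6) and Dcp1b (19.4) belonged to this class, as did 8 of the next 10 genes. Kcng1 had a ratio of 9.37 and Ski of 1.15. Of the 205, 81.0% had a log2 fold change above 0, against 49.1% of all tested genes, and the median was 0.39. Unadjusted p was below 0.05 upwards in 55 of them, against 3.54% of all tested genes. In 38 of the 205 all del/+ libraries were above all wt libraries, and in none all below. Over all tested genes 3.47% lay all above and 3.22% all below. In lysate RNA 139 of them were tested, 2 with unadjusted p below 0.05 where 4.41% of all genes had one, and their median log2 fold change was −0.06. Without del/+ library RIBO-504, 63.4% of the class were higher, with a median of 0.17. The rule took the mean of all 7 libraries, so genes could enter the class through high del/+ values. With the class set on the wt libraries alone it held 189 genes, 187 of them shared, with a median of 0.37. Of the 189, 78.8% had a log2 fold change above 0, and 45 had unadjusted p below 0.05 upwards. All del/+ libraries were above all wt libraries in 31 of them, and in none all below. The largest contributor to the 205 was Dap3, a protein of the small mitochondrial ribosomal subunit. Dap3 held 24.5% of the footprints of the class, at a ratio of 1879. In 82 of the 205 mean lysate RNA was under 1 CPM, and 5 had no lysate RNA count in any library. Whether counts on genes of this class, Lama1, Zfpm1 and Dcp1b among them, were ribosome footprints of their own mRNA was not tested.

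The class took 12.7%, 10.7%, 9.19% and 8.69% of the counts in the wt libraries and 15.1%, 13.9% and 11.3% in the del/+ libraries. The groups overlapped, with means of 10.3% ± 1.79 (SD, n = 4) and 13.4% ± 1.95 (SD, n = 3) and p = 0.114 in a two-sided exact permutation test. Among the 4 wt libraries the share was higher the fewer counts the library held, and among the del/+ libraries it was not. In the 3g line the del/+ libraries held more counts than the wt libraries, and the class took at most 5.75% in del/+ and at least 7.91% in wt. With log2 total count as a covariate, 1 gene (Lama1) was called in place of 7, and Kcng1, Zfpm1, Dcp1b, Ski, Aldoa and Maz were not, while the fold changes of all 7 kept their direction. Under that covariate 75.1% of the 205 genes were higher, with a median of 0.24. With the 205 genes left out, 7 genes were called, 3 of them in the segment. What part library size has in the higher footprints of Lama1, Zfpm1 and Dcp1b was not tested beyond these fits.

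**Figure D5:**
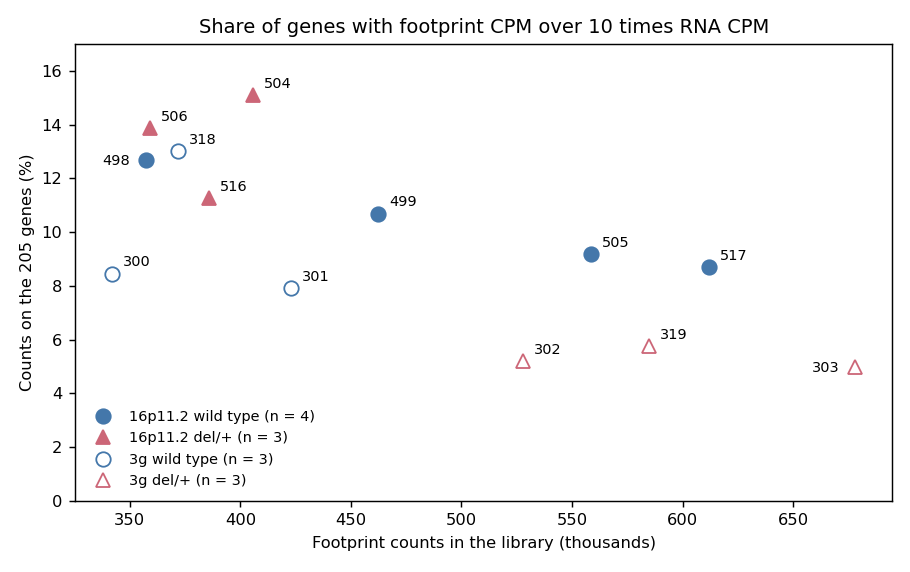
Share of counts on the 205 genes with footprint CPM over 10 times RNA CPM against total footprint counts, for 7 libraries of the 16p11.2 line (filled) and 6 of the 3g line (open). Within wt libraries of the 16p11.2 line the share falls from 12.7% to 8.69% as counts rise.

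No gene was called in any of the pathway lists, which were cytosolic ribosomal proteins, translation factors, the integrated stress response, mitochondrial ribosomal proteins, nuclear oxidative phosphorylation, the ERK cascade, paralogs and partners of deleted genes, immediate early genes, dopamine and striatal signalling, and proteins of presynaptic release and the postsynaptic glutamate site. For footprints of genes that make the translation machinery the medians were near 0. Of 83 cytosolic ribosomal protein genes 36 were tested, 19 lower and 17 higher, with a median log2 fold change of −0.01. Rack1, a scaffold on the small ribosomal subunit, was the member with unadjusted p below 0.05, at −0.65 ± 0.28 (SE, adjusted p = 0.744). The 34 translation factors tested had a median of −0.04, 19 lower and 15 higher, with Eef2, the elongation factor that moves ribosomes along mRNA, at −0.18 ± 0.21 (SE). Of 8 tested genes of the integrated stress response 3 were lower and 5 higher, with a median of 0.35. None of the 8 had unadjusted p below 0.05. Summed footprints of that list overlapped, at 427 to 583 CPM in wt and 481 to 683 CPM in del/+. Atf4, the central transcription factor of the response, had 63.0 ± 11.1 CPM in wt (SD, n = 4) and 88.1 ± 10.3 CPM in del/+ (SD, n = 3). Atf4 did not overlap between groups and did not pass the threshold. Over all tested genes 3.47% had all del/+ libraries above all wt libraries.

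In the ERK cascade, apart from Mapk3 itself 28 genes were tested, 15 lower and 13 higher, with a median of −0.12. Braf, a kinase at the top of the cascade, had 97.6 to 156 CPM in wt and 62.6 to 89.0 CPM in del/+ (log2 fold change −0.74 ± 0.25 SE, adjusted p = 0.491). Grb2, the adaptor that links receptors to RAS activation, had 58.1 to 71.2 CPM in wt and 77.8 to 122 CPM in del/+ (0.72 ± 0.25 SE, adjusted p = 0.542). Braf and Grb2 did not overlap between groups, in opposite directions, and neither passed the threshold. Over all tested genes 3.22% had all del/+ libraries below all wt libraries and 3.47% all above. Among 23 paralogs and partners of deleted genes the median was −0.03, with 12 lower and 11 higher. Doc2b, the paralog of Doc2a, was at −0.63 ± 0.35 (SE) and did not pass the threshold.

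Of 31 tested genes of dopamine and striatal signalling 19 were lower and 12 higher, with a median of −0.02. Gnal, the olfactory-type G protein that couples dopamine D1 receptors to adenylyl cyclase, was at 1143, 1040, 1398 and 1237 CPM in wt and at 2002, 2383 and 1622 CPM in del/+. All del/+ values were above all wt values, as in 3.47% of all tested genes. The log2 fold change of Gnal was 0.73 ± 0.21 (SE), with adjusted p = 0.230 and a lysate RNA log2 fold change of 0.04. DESeq2 gave Gnal an adjusted p of 0.00559. Drd1, the D1 receptor, was at 0.13 ± 0.23 (SE) and Adcy5, the main striatal adenylyl cyclase, at −0.25 ± 0.21 (SE). Cnr1, the cannabinoid receptor, was at −0.52 ± 0.23 (SE), with adjusted p = 0.749. Of 40 postsynaptic glutamate genes 29 were lower, with a median of −0.15, and Shank1 and Dlgap3, scaffolds of the postsynaptic density, were at −0.36 ± 0.20 and −0.41 ± 0.20 (SE). Of 36 presynaptic genes 22 were lower, with a median of −0.09. Summed presynaptic footprints were at 8111 to 9199 CPM in wt and 7721 to 7987 CPM in del/+, without overlap. Of 12 immediate early genes, which neurons switch on with activity, 8 were higher, with a median of 0.15. Of 11 tested mitochondrial ribosomal protein genes 8 were higher, with a median of 0.24. Of 69 genes of nuclear oxidative phosphorylation 44 were lower, with a median of −0.05. Cox6b1 and Ndufb7 were at −0.61 and −0.90 and Uqcr11 at 0.80, with adjusted p of 0.673 to 0.740.

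Genes next to the segment gave no call. On the Slx1b side 6 genes were tested, 5 of them higher, with a median of 0.24. Atxn2l, an ataxin-2 relative of stress granules, was at 0.34 ± 0.20 (SE) with overlapping groups, and at −0.10 ± 0.11 (SE) in lysate RNA. Summed footprints on that side were at 468 to 566 CPM in wt and 598 to 642 CPM in del/+, without overlap. In lysate RNA the median on that side was 0.02 over 13 genes. On the Septin1 side 12 genes were tested, 9 of them lower, with a median of −0.07. Markers of cell types gave no call either. The median was 0.06 over 6 markers of direct-pathway spiny neurons, which send their axons to the midbrain, 0.07 over 5 of indirect-pathway spiny neurons and −0.17 over 5 of GABA interneurons. The median log2 fold change was −0.10 over 8 oligodendrocyte genes, −0.20 over 9 astrocyte genes and −0.40 over 7 genes of cortical excitatory neurons, among them Slc17a7, the vesicular glutamate transporter of cortical input, at −0.46 ± 0.25 (SE). Summed cortical markers were at 501 to 1071 CPM in wt and 531 to 785 CPM in del/+. In lysate RNA the median over 10 astrocyte markers was 0.10. Summed over the 10 astrocyte markers, footprints were at 3059 to 3826 CPM in wt and 2713 to 2982 CPM in del/+, without overlap. Summed over the 6 mural cell markers, they were at 111 to 201 CPM in wt and 224 to 253 CPM in del/+, also without overlap. Sums were looked at for every gene list. The astrocyte, mural, presynaptic and Slx1b-side sums were not tested. At 3 against 4 libraries the two-sided exact permutation test cannot go below p = 0.0571. In lysate RNA, where 5 mural markers were tested, the median was −0.17. Both mural genes tested in footprints were higher in del/+, with a median of 0.56, and neither was called. One of them, Vtn, which was also among the 205 genes with more footprints than RNA, was at 0.62 ± 0.24 (SE, adjusted p = 0.688). Medians were −0.12 over 3 oligodendrocyte precursor genes, −0.23 over 4 microglial genes and 0.16 over 4 red blood cell genes. The median over the 8 pan-spiny markers was −0.11.

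The effect of the whole deletion was set against that of the 3g mutations by the interaction of genotype and line over 13 footprint libraries. Of 7692 tested genes 13 were called (0.169%), none of them in the segment, and 12 of the 13 had the higher effect in the 16p11.2 line. In the 3g line alone 0.0132% of 7553 tested genes were called. Unadjusted p was below 0.05 in 9 of the 13 segment genes tested within the 16p11.2 line, and in no other segment gene. Over all tested genes 8.92% had such a p. For Maz the 3g log2 fold change was −0.05 ± 0.22 and the difference between lines −1.04 ± 0.30 (SE), with adjusted p = 0.189. For Aldoa the difference was −1.19 ± 0.35 (SE), with adjusted p = 0.197. Sez6l2, deleted in the 16p11.2 line and carrying a null mutation in 3g, was at −0.85 ± 0.22 in 3g and differed between lines by −0.12 ± 0.30 (SE). Taok2, likewise deleted in the first and mutated in the second, was at −0.15 ± 0.22 in 3g and differed by −0.82 ± 0.31 (SE), with unadjusted p = 0.0127 and adjusted p = 0.393. Mvp had 13 footprints over the 7 libraries of the 16p11.2 line and was not tested.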

How the data were processed

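Ribosome footprints and lysate RNA of the same animals, and bulk RNA of other males, were taken as raw gene counts, as the authors deposited them. Per the labels footprint and lysate RNA reads were aligned with Bowtie2 to mm39 and bulk RNA reads were counted with HTSeq on mm10, by the submitters' processing notes. Tool versions, the treatment of reads with several matches and of ribosomal RNA, and the read lengths kept are not given in the sources used here. Footprint totals were 357221 to 611890 counts per library, so single genes rest on few counts.

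Genes were filtered with filterByExpr, scaled by TMM and tested with edgeR 4.0.16 (glmQLFit, glmQLFTest) in R 4.3.3, with limma 3.58.1 and DESeq2 1.42.0 as an alternative tool. Adjusted p is Benjamini-Hochberg over all tested genes, called below 0.05, and fold changes are del/+ over wt. The 7 footprint libraries were fitted alone, without covariates. Interactions were fitted over 14 libraries (genotype and assay) and 13 libraries (genotype and line). The test across genes was tested on simulated data. Single values used a two-sided exact permutation test over 35 assignments, which cannot go below 0.0571. The libraries of a group come from numbered animals, and replicate pairs differed by more than counting noise. Footprint and lysate RNA of one number come from the same lysate. Their deviations from group means correlated at 0.239 to 0.468 over 2588 genes, each footprint library best with its own RNA.

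Named genes were all segment genes, genes called outside it, the next 10 by p without overlap, and, from the gene lists, members with the lowest p or the highest level. The segment genes, lists and tests were chosen with earlier results of these data known. The alternatives were no low-count filter, a mean count of 10, RLE scaling, TMM without segment genes, DESeq2, other p thresholds, 1 fit over 13 footprint libraries, replicate blocks, and each library left out. Of the alternatives, 3 were chosen after seeing the data: leaving out genes with far more footprints than RNA, leaving out mitochondrially encoded genes, and log2 total count as a covariate. Gene neighbours and promoter windows came from RefSeq tables of GRCm38.p6, matched by symbol or identifier. The lysate and bulk RNA of the 3g line and the female bulk samples were not used here. There were 0 sample columns without a label in the tables used.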

Additional observations from a re-analysis of the deposited data

Results flagged for a closer look

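The difference between the 16p11.2 effect and the 3g effect in footprints passed the adjusted threshold in 13 genes (edgeR, genotype by line), and both effects rest on separate wt libraries. It was 2.03 (log2) for Lama1, 2.08 for Kcng1 and 2.67 for Dcp1b, the genes also called within the 16p11.2 line. For other genes whose log2 fold change was above 0 in the 16p11.2 line and below 0 in the 3g line it was 2.26 for Olfr1029, 2.38 for Tex52, 2.68 for Fzd8, 2.19 for Kdr, 1.56 for Cdk5rap1, 2.25 for Sertad4, 3.97 for Cybb and 1.66 for Cnnm4. It was 3.36 for Pxdc1, too low in counts for a test within the 16p11.2 line, and −1.64 for Usp31, with the opposite directions. Of the 13 genes 8 had footprint CPM over 10 times RNA CPM. Total counts moved with these differences: wt libraries held 357221 to 611890 counts in the 16p11.2 line and 342052 to 422918 in the 3g line, and del/+ libraries 359056 to 405765 and 527917 to 678130. Their part in the differences was not tested.

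The effect of the deletion on Kcng1 differed between footprints and RNA of the same lysates, by 1.53 (log2). Its footprints were higher in 3 of 3 del/+ libraries than in all 4 wt libraries, and its RNA was lower in 3 of 3 (12.3 to 13.8 against 15.4 to 17.7 CPM).

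Among 32 sets of 4 wt values, 1 held a value far from the others: Zfp648 had 114 CPM in RIBO-498 and 66.5 to 72.7 CPM in the other wt libraries. Chance gives such a value in about 1 in 20 sets.

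Footprints on the coat colour genes a and Tyr, which had too few counts for the footprint test, summed to 5.51 to 25.02 CPM in del/+ and to 0 to 3.63 CPM in wt. The highest value came from 9 counts of gene a in RIBO-506. In lysate RNA Tyr had 22 to 38 counts in del/+ and 1 to 4 in wt.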

How the results depend on the processing

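The 13 segment genes of the main fit were lower in del/+ under every alternative that tested them, with medians of −1.11 to −1.03. For these 13 the direction did not depend on the processing while the calls did. The 19 other segment genes were not followed through the alternatives. Footprint calls (7, of which 2 in the segment and 5 outside) were 19 (6 and 13) at adjusted p below 0.10, 367 (12 and 355) at unadjusted p below 0.05, 18 (3 and 15) in DESeq2, 43 (6 and 37) without the low-count filter, 4 (1 and 3) with all 13 footprint libraries in 1 fit, and 1 (0 and 1) with log2 total count as a covariate. Leaving out 1 library gave 2 (without RIBO-517) to 13 (without RIBO-499) calls, 0 to 4 in the segment and 2 to 9 outside. No segment gene was called without RIBO-505, RIBO-517, RIBO-504 or RIBO-516, and Lama1 was called in every setting that tested it. Without RIBO-504 genes with over 10 times more footprints than RNA were higher in 63.4% of cases, with a median of 0.17. The 19 calls in lysate RNA were 32 in DESeq2 and 10 (without RNA-506) to 19 with a library left out. The 19 bulk calls were 37 in DESeq2, 17 to 26 with a library left out and 14 with a replicate block, whose numbers did not pair (correlations −0.241 to 0.113). For the difference of footprint and RNA effects, 1 gene was called without and 10 with the animal as replicate block, 4 in DESeq2, and 1 to 2 with an animal left out. For the difference between lines 13 became 34 in DESeq2 and 4 to 55 with a library left out, the 55 without the 3g wt library RIBO-301. The counts of 7, 2 and 5 were the same with RLE scaling, TMM without segment genes, a mean count of 10 and mitochondrially encoded genes left out. The alternatives gave 892 values of 57 named genes, all of them tested in the main fit. Of these values, 835 stayed on their side of the threshold or had no adjusted p in the alternative. Another 32 lost a call, 25 gained one and 0 changed direction. Where a count moved, the cause was not tested.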
